A study of Saccharomyces cerevisiae with 6 samples.

Results

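The genes for the proteins of the cytosolic large ribosomal subunit were followed in a pair of strains of the budding yeast Saccharomyces cerevisiae. They were taken as every row of the transcript table whose gene name is RPL or RPP followed by its number and, where present, a copy letter A or B, which gave 80 of 6416 rows. One of these rows, RPP1, encodes a subunit of RNase P, the enzyme that trims precursor tRNA, and is not a ribosomal protein gene, so the remaining 79 are described as the large-subunit genes and RPP1 is given apart. RPL41A and RPL41B were not analysed here. All 80 rows passed the filter on low values, and the lowest value of a large-subunit gene in any library was 1147 scaled counts.

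Both strains were BY4741, a laboratory strain of mating type a with deletions in HIS3, LEU2, MET17 and URA3, grown on galactose as the only carbon source in synthetic complete medium. The strain expressing NdeltaCit1-DS/AA-H/G, shortened to DS/AA-H/G, gave 3 libraries numbered 4 to 6. The strain expressing NdeltaCit1-DS/AA, shortened to DS/AA, gave another 3, numbered 1 to 3. Per the series' title both forms concern citrate synthase Cit1 without the presequence that carries it into mitochondria. The labels give neither the substitutions nor the promoter and copy number of the constructs, nor whether a strain's libraries stem from separate cultures. The p-values therefore reflect only the spread among these libraries, which may be technical. The CIT1 row was at 1205728 ± 11966 scaled counts in DS/AA-H/G against 522165 ± 23866 in DS/AA (SD, n = 3). The sample titles name no deletion of CIT1, so this row may also count the strain's own CIT1 transcript. Effects of the form and of the level of this row cannot be told apart. URA3, deleted in BY4741 and a common plasmid marker, was counted at 40821 ± 234 in DS/AA-H/G against 16114 ± 871 in DS/AA (SD, n = 3). HIS3 went the other way, at 1155 ± 97.2 against 1860 ± 162, a change of 0.69 (limma adjusted p = 1.45e-05). The libraries held 30277564 to 32702577 estimated reads. Scaled counts are the deposited values, which are estimated read counts divided by 1 factor per library. The genes STE2, BAR1 and STE6 of mating type a were present at means of 5714 to 17212 scaled counts and fell, by 0.62, 0.71 and 0.32 on the log2 scale, whereas MFA1 and MFA2, the a-factor genes with coding lengths of 111 and 117 nt, were near 0, at means of 2.33 to 13.3, and were not called. Of the mating type alpha genes, SAG1, at means of 1543 in DS/AA against 1295, and STE3, at 487 in DS/AA, were called higher, by 0.25 and 0.31, and the alpha-factor genes MF(ALPHA)1 and MF(ALPHA)2, at means of at most 63.3, were not called. The part of these shifts in the changes below was not tested. Of the galactose genes GAL1, GAL2, GAL7 and GAL10, each at a mean of 150330 or more, GAL1 and GAL7 fell, by 0.15 and 0.21 on the log2 scale. GAL2 and GAL10, at -0.23 ± 0.10 and -0.07 ± 0.05 (SE), were not called.

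The large subunit joins amino acids in its peptidyl transferase centre, lets the new chain out through a tunnel, and recruits the elongation factors with a flexible stalk of acidic P proteins. In budding yeast most of its proteins are encoded by a pair of similar genes, the A and B copies left by an ancient genome duplication, and many of these genes carry an intron. Transcripts of ribosomal proteins are among the most abundant in growing yeast, and their genes are driven as a group by factors such as Rap1, Fhl1, Ifh1 and Sfp1 that answer to nutrient and stress signals.

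Nearly all large-subunit genes were slightly lower in DS/AA than in DS/AA-H/G. Of the 79 genes, 75 fell, RPL9B and RPL15B rose, and RPL29 and RPL39 were not called. With RPP1 the counts over the 80 rows were 76 lower and 2 higher. Of all 6197 tested rows 41.8% were called, 19.7% lower and 22.1% higher. Over all rows 52.8% of calls were higher as deposited, 36.8% under quantile normalization and 71.1% when all libraries were scaled to equal totals. The median change was -0.28 on the log2(value + 1) scale, or 0.82-fold, with an interquartile range of -0.32 to -0.23, while the median over all tested rows was 0.01. The falls were narrow in size, and no large-subunit gene was lower by 1.5-fold or more, a size passed by 2.40% of all tested rows. Calls here are limma's, with p adjusted by Benjamini-Hochberg over all tested rows and a threshold of 0.05.

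**Figure D1:**
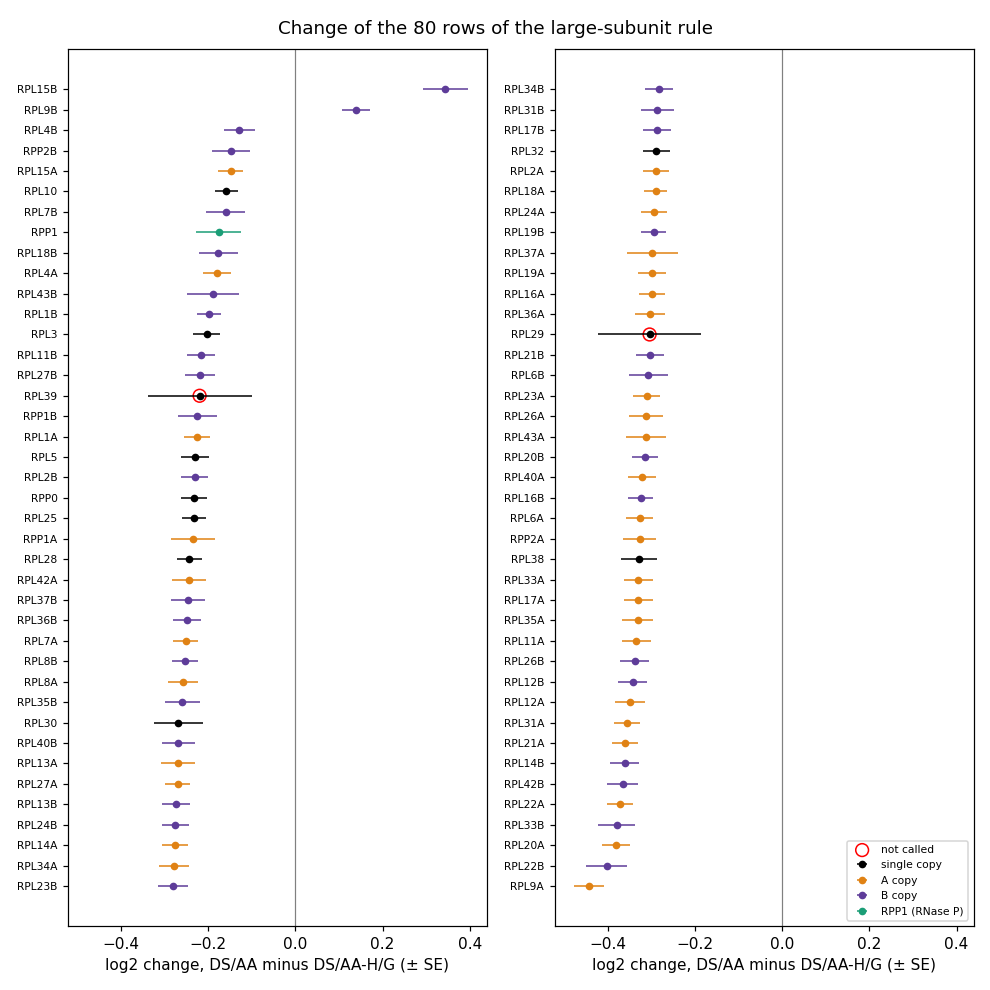
The 80 rows of the rule in order of their log2 change, DS/AA minus DS/AA-H/G, with the standard error as a bar, coloured by copy. The left panel holds the 40 highest values and the right panel the 40 lowest. RPL15B at 0.34 and RPL9B at 0.14 lie above 0, all other rows lie below 0, and the uncalled genes RPL29 and RPL39 have the widest bars.

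Added together, the 79 genes took 7.0%, 6.94% and 6.85% of the scaled total in DS/AA-H/G against 6.08%, 5.91% and 6.07% in DS/AA. The share was thus lower in each DS/AA library than in any DS/AA-H/G library, with p = 0.1 by a two-sided exact permutation test, which cannot go lower with 3 libraries a strain. With the CIT1 row left out of the total, the shares were 7.20% ± 0.0769 in DS/AA-H/G against 6.13% ± 0.101 in DS/AA (SD, n = 3). The values of single genes did not overlap between the strains for 76 of the 80 rows in the lower direction and 2 in the higher, where 52.7% of all tested rows did not overlap in either direction. In the authors' deposited table, 78 of the 80 rows had q under 0.05 with a lower mean in DS/AA and 2 with a higher mean, against 19.2% and 22.2% of all its rows. RPL29 and RPL39 had such a q in the authors' deposited table but were not called by limma.

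The genes of the small subunit, named RPS, had a like pattern, with 54 of 56 called lower and a median change of -0.30. The plot of cumulative shares sets both groups beside all tested rows.

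**Figure D2:**
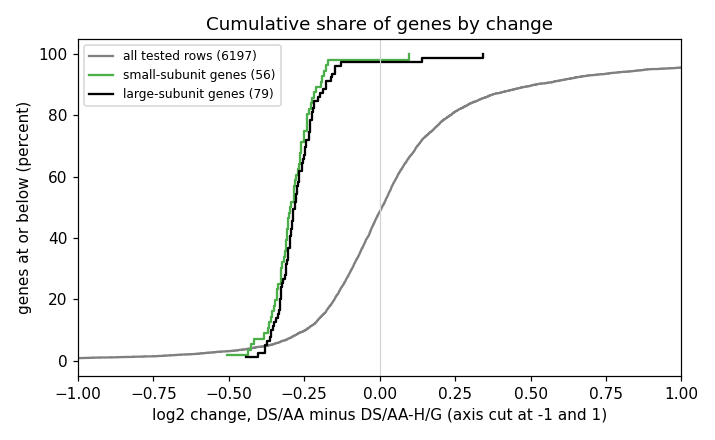
Cumulative percent of genes against the log2 change, DS/AA minus DS/AA-H/G, for all tested rows, small-subunit genes and large-subunit genes, with the number of each in the legend, and with the axis cut at -1 and 1. The curves of both ribosomal groups climb steeply between the quartiles of -0.33 and -0.23, to the left of the curve for all rows, whose quartiles are -0.12 and 0.17.

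By role, all 7 genes of the stalk fell, with a median of -0.23. RPP0, which anchors the stalk proteins to the subunit, stood at 70398, 66813 and 70274 scaled counts in DS/AA and at 81787, 81446 and 80428 in DS/AA-H/G, a change of -0.23 ± 0.03 (SE, limma adjusted p = 6.71e-05). RPP0 overlaps the row YLR339C on the opposite strand over 449 nt. The library kit was directional, but the strand setting of the counting is unknown, so reads of both strands may have been mixed there. The acidic P1 genes RPP1A and RPP1B changed by -0.23 and -0.22, and the P2 genes RPP2A and RPP2B by -0.33 and -0.15. RPP2B, the least changed of them, was not called when all libraries were scaled to equal totals (limma adjusted p = 0.122) or to equal totals outside the ribosomal protein genes (0.0565), nor without trend and robust moderation (0.0791) or without DS/AA-H/G replicate 4 or 5. RPL12A and RPL12B, which encode the protein at the stalk's base, had changes of -0.35 and -0.34, and each overlaps a row on the opposite strand over 311 nt.

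All 3 genes of the particle that carries the 5S RNA into the subunit fell. RPL5 (YPL131W, chromosome XVI, 303121 to 304014, R64), which binds that RNA directly, stood at 77739, 73207 and 77814 scaled counts in DS/AA and at 89804, 88084 and 90246 in DS/AA-H/G, a change of -0.23 ± 0.03 (SE, limma adjusted p = 1.10e-04). Its partner Rpl11 is encoded by RPL11A and RPL11B, which changed by -0.33 and -0.22. The DS/AA values lay below the DS/AA-H/G values in each of these genes.

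The 4 genes whose proteins reach towards the peptidyl transferase centre and the P site fell as well, with changes of -0.16 to -0.29. RPL3 (YOR063W, chromosome XV, 444686 to 445849), whose protein extends a loop to the catalytic centre, was the most abundant large-subunit transcript by scaled count. It stood at 139674, 130733 and 135722 in DS/AA and at 155063, 157596 and 154856 in DS/AA-H/G, a change of -0.20 ± 0.03 (SE, limma adjusted p = 2.02e-04). RPL10, which encodes a protein loaded last onto the subunit and contacting the P-site tRNA, changed by -0.16 and overlaps YLR076C on the opposite strand over 408 nt. The calls of RPL10 and RPL2B were lost under quantile normalization, as were those of RPL15A, then at -0.04, and RPL28, then at -0.06. Both genes of the L1 stalk protein, which guides spent tRNA out of the ribosome, fell, RPL1A by 0.23 and RPL1B by 0.20 on the log2 scale. The copies RPL1A and RPL1B share 654 nt at 99.4% identity and are uncertain as single copies, because estimated counts divide shared reads.

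Of the 16 genes whose proteins line the exit tunnel or ring its mouth, 15 fell and the median change was -0.30. RPL22A and RPL22B, which encode a protein at the rim that yeast can live without, had among the lowest changes of all. RPL22B (YFL034C-A, chromosome VI, 64243 to 64932) stood at 1261, 1190 and 1265 scaled counts in DS/AA and at 1656, 1659 and 1599 in DS/AA-H/G, a change of -0.40 ± 0.05 (SE, limma adjusted p = 2.53e-05). RPL22A, the copy that supplied 93.3% of the pair's signal in DS/AA against 93.1% in DS/AA-H/G, changed by -0.37. BUD28 overlaps RPL22A on the opposite strand over 354 nt. RPL25, whose protein is a docking site for the signal recognition particle, stood at 40817 ± 532 scaled counts in DS/AA-H/G against 34728 ± 224 in DS/AA (SD, n = 3), a change of -0.23. RPL4A and RPL4B, whose protein forms part of the tunnel wall, had smaller changes, at -0.18 and -0.13. The copies RPL4A and RPL4B share nearly all of their coding sequence (1088 nt aligned) and are uncertain, and the call of RPL4B was lost with equal totals, without trend and robust moderation, and without DS/AA-H/G replicate 5.

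RPL39, the remaining tunnel gene, was not called. It stood at 2622, 2760 and 2942 scaled counts in DS/AA and at 3812, 3254 and 2709 in DS/AA-H/G. The strains overlapped, and the change was -0.22 ± 0.12 (SE, limma adjusted p = 0.190). RPL29, which encodes a small protein that yeast can also live without, was at 1263, 1435 and 1470 against 2006, 1741 and 1436, a change of -0.30 ± 0.12 (SE, limma adjusted p = 0.0778). In both genes DS/AA-H/G replicate 6 was the lowest of its strain and replicate 4 the highest. Without DS/AA-H/G replicate 6, RPL29 was at -0.43 and RPL39 at -0.35, and both were called (limma adjusted p = 0.00192 and 0.00391). Under quantile normalization RPL29 was also called, with a limma adjusted p of 0.0397.

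RPL39 and RPL29 have the shortest coding sequences of the 79 genes, 156 and 180 nt, and the largest spread between the DS/AA-H/G libraries, with an SD of 16.9% and 16.5% of the mean. Over the 79 genes the median spread was 1.78% in DS/AA-H/G and 2.67% in DS/AA. For the 7 genes with coding lengths under 300 nt, the medians were 4.92% and 5.51%, and for the 19 genes of 600 nt or more they were 1.07% and 2.94%. BUD19 overlaps RPL39 on the opposite strand over 150 nt, and RPL29 overlaps no row. The part of length and of this overlap in the missing calls was not tested.

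**Figure D3:**
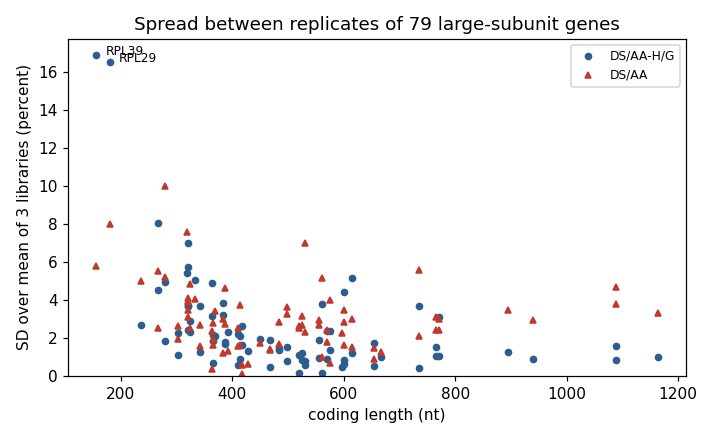
Standard deviation over the mean of 3 libraries, in percent, against the coding length in nt for each of the 79 large-subunit genes, with circles for DS/AA-H/G and triangles for DS/AA. RPL39 and RPL29, at 16.9% and 16.5% in DS/AA-H/G, lie far above the other genes of that strain.

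Among genes with other places in the subunit, RPL24A and RPL24B, whose proteins bridge to the small subunit, changed by -0.29 and -0.28. RPL40A and RPL40B, which encode a ribosomal protein made as a fusion with ubiquitin, changed by -0.32 and -0.27. RPL28, the gene with the highest level per length, stood at 64388 ± 1247 scaled counts in DS/AA-H/G against 54405 ± 945 in DS/AA (SD, n = 3), a change of -0.24, and overlaps YGL102C on the opposite strand over 401 nt. RPL20A, which RefSeq gives a first exon of a single base that the deposited coordinates leave out, was at -0.38 ± 0.03 (SE, limma adjusted p = 1.69e-06), with 18317, 17401 and 18059 scaled counts in DS/AA against 23490, 23039 and 23487. RPL33B was at -0.38, RPL42B at -0.37, and RPL14B and RPL21A both at -0.36. RPL14B and RPL42B share 417 nt at 96.4% and 321 nt at 98.1% identity with their A copies and are uncertain as single copies, because estimated counts divide shared reads. RPL21A shares 8 nt with YBR190W of the same strand, and reads there are uncertain. RPL43B, whose protein holds a zinc-binding fold, was the least stable call, at 8890, 10832 and 9676 scaled counts in DS/AA against 11293, 11221 and 10905, a change of -0.19 ± 0.06 (SE, limma adjusted p = 0.0272). Its values did not overlap, but DS/AA replicate 2 lay close to the other strain, and the call was lost under each rescaling other than median-of-ratios, without trend and robust moderation, and without any 1 library other than DS/AA replicate 2. RPL7B, at -0.16, was not called with equal totals, without trend and robust moderation, or without DS/AA-H/G replicate 4. It shares 735 nt at 96.7% identity with RPL7A and is uncertain as a single copy, and it overlaps YPL197C on the opposite strand over 360 nt. RPL43B and RPL7B were picked with their values known.

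The row RPP1, the RNase P subunit gene, changed by -0.18 ± 0.05 (SE, limma adjusted p = 0.0170), with 1375 ± 43.2 scaled counts in DS/AA against 1554 ± 86.0 in the other strain (SD, n = 3). Its call was lost when DS/AA replicate 2 or DS/AA-H/G replicate 5 or 6 was left out, with a limma adjusted p of up to 0.0771, and with equal totals, with 0.0739.

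Levels differed far more between genes than between strains. For the 79 large-subunit genes, levels per kilobase of coding sequence were averaged over all libraries. They ran from 2215 scaled counts in RPL15B to 131992 in RPL28, a 59.6-fold range, with a median of 42922. RPL22B was second lowest at 3898 per kilobase, and RPL3, at 125092, was second highest. Of the 79 genes 53 carry an intron in their coding sequence. The 53 genes with an intron had a median change of -0.29 and the 26 without one a median of -0.23, and the highest changes, those of RPL9B and RPL15B, belong to genes without an intron. The 11 single-copy genes had a median of -0.23, the 34 A copies -0.30 and the 34 B copies -0.27. Across the 79 genes, which share the same libraries and scaling, Spearman's rho of the change with coding length was 0.31 and with the level per kilobase 0.07, given as a description only.

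RPL9A and RPL9B were the pair whose copies went furthest apart. They encode nearly the same protein, which sits at the base of the stalk. RPL9A (YGL147C, chromosome VII, 227754 to 228329) had the lowest change of all members, with 25517, 23557 and 24417 scaled counts in DS/AA against 33374, 33685 and 32798 in DS/AA-H/G, a change of -0.44 ± 0.03 (SE, limma adjusted p = 9.71e-07). RPL9B (YNL067W, chromosome XIV, 499681 to 500256) was at 12570, 12696 and 12539 against 11656, 11550 and 11140, a rise of 0.14 ± 0.03 (SE, limma adjusted p = 0.00472). Neither copy's values overlapped between the strains. The A copy therefore supplied 74.4% ± 0.270 of the pair's signal in DS/AA-H/G against 66.0% ± 1.01 in DS/AA (SD, n = 3). The log2 ratio of A to B changed by -0.58 ± 0.03 (SE, limma adjusted p = 1.00e-30 over the 60 pairs tested, and p = 0.1 by the two-sided exact permutation test). The sum of both copies fell by 0.27, near the median of all large-subunit genes.

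RPL15A and RPL15B, which encode a core protein that binds the 5.8S RNA, also went opposite ways. RPL15A (YLR029C, chromosome XII, 201976 to 202590) was at 39613, 38550 and 38637 scaled counts in DS/AA against 42746, 43740 and 42946, a change of -0.15 ± 0.03 (SE, limma adjusted p = 0.00139). RPL15B (YMR121C, chromosome XIII, 509734 to 510348) had the lowest level per kilobase of the large-subunit genes. It was at 1503, 1576 and 1493 against 1269, 1147 and 1187, a rise of 0.34 ± 0.05 (SE, limma adjusted p = 2.17e-04). The A copy held 97.3% ± 0.165 of the pair in DS/AA-H/G against 96.2% ± 0.142 in DS/AA (SD, n = 3). The log2 ratio changed by -0.49 ± 0.04 (SE, limma adjusted p = 1.28e-16), and the sum of both copies fell by 0.13, the smallest fall of any summed pair. The copies of RPL9 share an identical stretch of 110 nt and those of RPL15 one of 116 nt, so their division is uncertain where reads fall within these stretches. The part of reads from RPL15A, the far more abundant copy, in the RPL15B values was not tested.

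**Figure D4:**
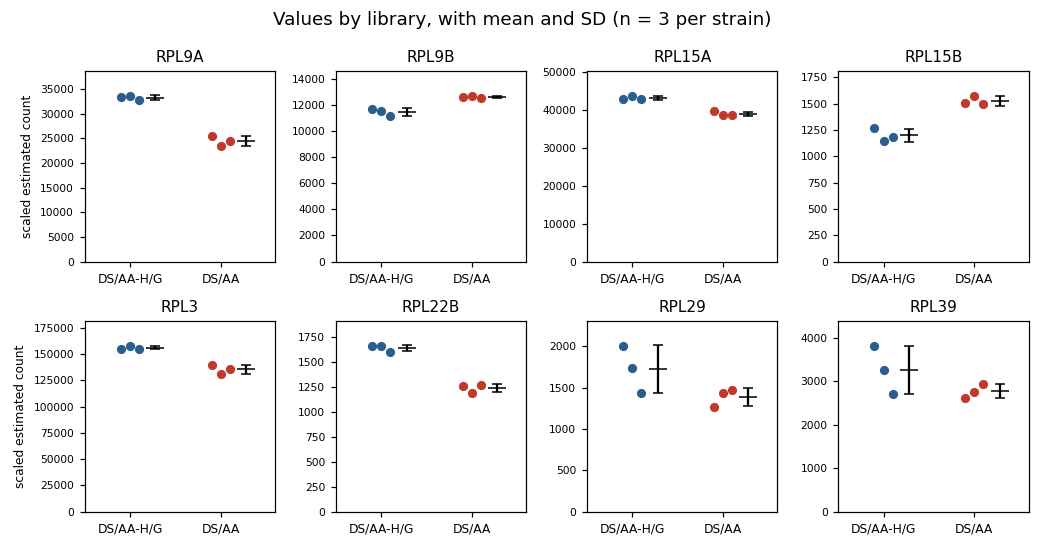
Scaled estimated counts of 8 large-subunit genes in each library, DS/AA-H/G on the left and DS/AA on the right of each panel, with the mean and SD of 3 libraries as a black bar beside the points and axes that start at 0. The strains do not overlap for RPL9A, RPL15A, RPL3 and RPL22B, which are lower in DS/AA, or for RPL9B and RPL15B, which are higher, and they overlap for RPL29 and RPL39.

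The promoters of both pairs are shown because their copies moved in opposite directions while coding for nearly the same protein. Each run holds 250 bases before and 50 bases after the start codon's first base, 5′ to 3′ along the gene's strand, from the RefSeq R64 genome. RPL9A lies at chrVII:228280-228579 on the minus strand, RPL9B at chrXIV:499431-499730 on the plus strand, RPL15A at chrXII:202541-202840 on the minus strand and RPL15B at chrXIII:510299-510598 on the minus strand. Capitals mark matches, on either strand, to a Rap1 core ACCCNNACA, an Fhl1 core GACGCA or an Sfp1 motif AAAATTTT.
RPL9A: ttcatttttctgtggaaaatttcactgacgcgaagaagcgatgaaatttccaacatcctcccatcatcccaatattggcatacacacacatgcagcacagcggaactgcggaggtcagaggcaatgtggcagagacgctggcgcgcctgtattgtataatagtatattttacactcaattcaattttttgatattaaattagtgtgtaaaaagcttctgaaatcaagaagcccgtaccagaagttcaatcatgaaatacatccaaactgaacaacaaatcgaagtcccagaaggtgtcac
RPL9B: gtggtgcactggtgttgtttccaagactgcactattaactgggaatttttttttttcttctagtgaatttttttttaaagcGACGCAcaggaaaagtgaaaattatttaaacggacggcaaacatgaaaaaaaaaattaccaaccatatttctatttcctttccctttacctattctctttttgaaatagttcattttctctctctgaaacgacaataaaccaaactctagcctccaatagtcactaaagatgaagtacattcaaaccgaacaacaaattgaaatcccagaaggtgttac
RPL15A: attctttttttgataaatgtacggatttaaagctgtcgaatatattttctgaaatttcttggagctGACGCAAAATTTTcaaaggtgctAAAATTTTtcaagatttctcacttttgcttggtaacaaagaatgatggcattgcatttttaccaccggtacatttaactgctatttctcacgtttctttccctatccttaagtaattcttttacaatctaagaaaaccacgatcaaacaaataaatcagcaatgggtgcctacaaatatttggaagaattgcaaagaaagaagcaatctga
RPL15B: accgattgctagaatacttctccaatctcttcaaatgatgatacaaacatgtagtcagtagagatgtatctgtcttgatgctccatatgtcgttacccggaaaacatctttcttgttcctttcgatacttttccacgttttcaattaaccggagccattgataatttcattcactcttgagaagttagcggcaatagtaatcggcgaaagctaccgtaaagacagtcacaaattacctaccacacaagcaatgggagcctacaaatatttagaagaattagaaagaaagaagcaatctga
RPL9B held 1 match to the Fhl1 core, which ended 163 bases before the start codon. RPL15A held an Fhl1 match and 2 Sfp1 matches, the first of which overlaps the Fhl1 match by 1 base. RPL9A and RPL15B held no match, which says only that these letters are not in these windows. Among the 79 large-subunit promoters of this length, 10.1% held the Rap1 core, 13.9% the Fhl1 core and 7.6% the Sfp1 motif, against 2.8%, 6.3% and 9.0% of the promoters of 6020 coding genes. Matches are letters, not sites of binding.

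Over all 34 A and B name pairs of the large subunit, both copies fell in 32. The ratio of A to B was called different between the strains in 13, where 36.7% of all 60 such pairs in the table were called and 34.6% of the 26 pairs outside the large subunit. Those 26 pairs are small-subunit RPS pairs apart from COX5 and NHP6, so both backgrounds consist almost only of ribosomal protein genes. The A copy fell further than the B copy in 11 of the 13 and the B copy in RPL14 and RPL42. Of the 9 called pairs outside the large subunit, the A copy fell further, or rose less, in 3. Over all pairs, called or not, the ratio of A to B was lower in DS/AA in 26 of 34 large-subunit pairs and in 9 of 26 others, a difference that was not tested. The median absolute change of the log2 ratio was 0.09 over the 13 called pairs, and 0.05 over all 34 as over the 26 others. Without trend and robust moderation 6 large-subunit pairs were called, and the pairs RPL9, RPL15, RPL11, RPL42 and RPP2 were called under each setting tried. Among the 13 called pairs, only RPL20, RPL21, RPL31 and RPP2 were not uncertain by the shared stretches defined below. In the rest, estimated counts divide shared reads between the copies, and the part of this in the ratios was not tested. The moderated fit draws the pairs' spreads close to a common value, with a median of 94.6 total degrees of freedom against 4 from the libraries of a pair, so its smallest p-values rest on that pooling.

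After RPL9 and RPL15, the pair RPP2A and RPP2B, the genes of the P2 proteins, had the largest called shift. RPP2A held 37.3%, 36.5% and 36.5% of the pair in DS/AA and 39.4%, 39.2% and 40.4% in DS/AA-H/G, a ratio change of -0.18 ± 0.03 (SE, limma adjusted p = 4.11e-06). These genes share 74.0% of their coding bases and no identical stretch over 30 nt. RPL42A held 48.7%, 48.2% and 47.9% of its pair in DS/AA-H/G against 49.8%, 50.3% and 51.0% in DS/AA. RPL11A went the other way, with 50.7%, 51.1% and 51.7% in DS/AA-H/G against 49.3%, 49.0% and 49.1%. The copies of RPL42 and RPL11 stayed close to equal and are uncertain, with identical stretches of 125 and 326 nt, and in RPL11 the larger copy was A in each DS/AA-H/G library and B in each DS/AA library. RPL18, with a ratio change of -0.11, was called in the full set (limma adjusted p = 0.00469), but its ratios overlapped between the strains. Its call was lost without DS/AA replicate 1, DS/AA replicate 2 or DS/AA-H/G replicate 6 (limma adjusted p = 0.120, 0.0862 and 0.138), and without trend and robust moderation (0.107).

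RPL2, RPL4, RPL7, RPL14, RPL20, RPL21 and RPL31 were called as well, with ratio changes of -0.09 to 0.08. The remaining pairs showed no called shift. In RPL19, RPL34 and RPL8 the ratio changed by 0.00 on the log2 scale with SEs of 0.02 to 0.03, and RPL19A held a mean of 42.2% in each strain. The copies of RPL8 share 771 nt at 95.1% identity and those of RPL19 an identical stretch of 116 nt, so both pairs are uncertain. Across the 34 pairs the A copy supplied between 23.0% (RPL36) and 96.8% (RPL15) of the signal, was the larger copy in 18 and the smaller in 16, and in 29 pairs the same copy was the larger one in all 6 libraries. Coding identity ran from 68.9% in the P1 genes to 99.4% in RPL1, and 12 pairs held an identical stretch of at least 100 nt. With the copies of each pair added before the log, which removes the question of how shared reads were divided, all 34 sums fell, with changes of -0.37 to -0.13, where 18.8% of all rows so formed were called lower.

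**Figure D5:**
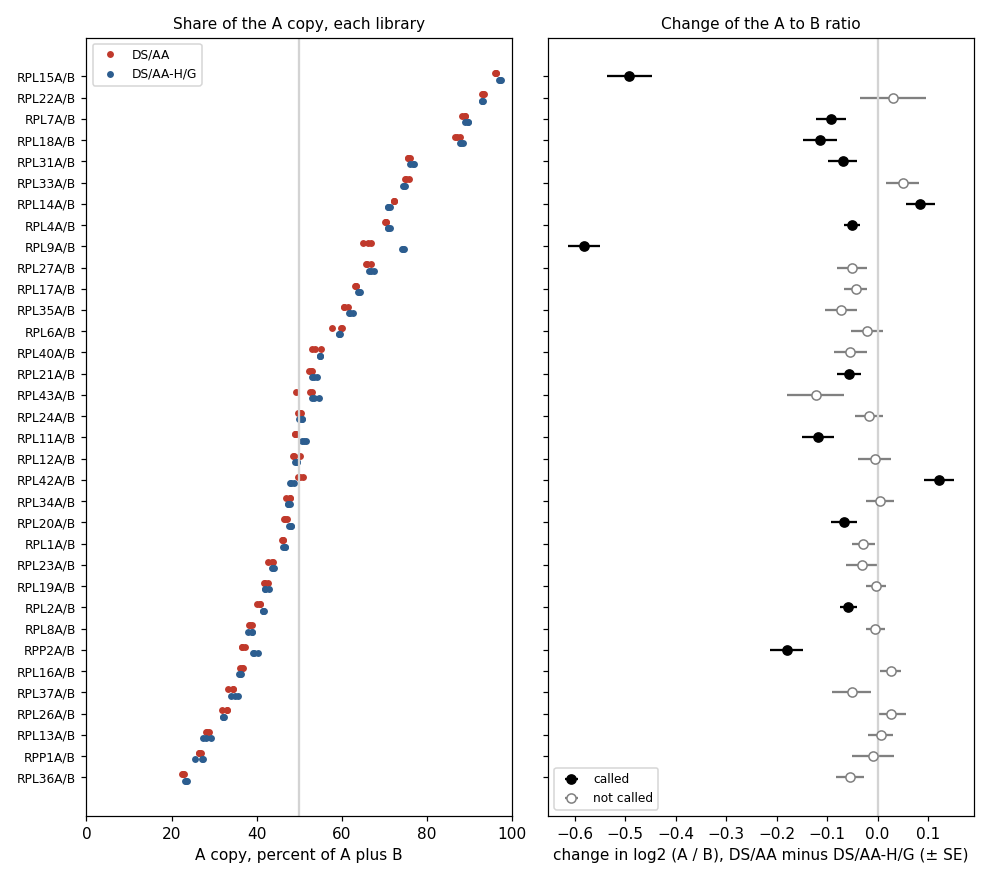
Left, the A copy as a percent of A plus B in each library for the 34 large-subunit pairs, with DS/AA and DS/AA-H/G as points of different colour. Right, the change in log2 (A / B), DS/AA minus DS/AA-H/G, with the SE as a bar and filled points for called pairs. RPL9 at -0.58 and RPL15 at -0.49 lie apart from the other pairs, which lie between -0.18 and 0.12.

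Of 54 genes for factors of its assembly and export, 33 fell and MDN1, which encodes a large remodelling ATPase and was named after its value was seen, rose by 0.13, with a median change of -0.15 over the list, and 20 were not called. The 33 are 61.1% of the list, against 19.7% of all tested rows called lower. The largest falls were in NOG2, a GTPase gene that holds a small nucleolar RNA gene in its intron, at -0.36 ± 0.04 (SE, limma adjusted p = 2.70e-05), IPI3 at -0.32 and the helicase gene MAK5 at -0.25. These counts were less stable than those of the ribosomal genes. With equal totals 10 of the 54 fell (18.5%, against 12.1% of all rows), or 22 with the CIT1 row kept out of the totals and 19 with ribosomal protein genes kept out of them. Without trend and robust moderation 7 fell (13.0%), fewer than the 15.6% of all rows called lower in that fit, among them NOG2 and IPI3 but not MAK5 (limma adjusted p = 0.0644). The count was 16 without DS/AA replicate 2, 13 without DS/AA-H/G replicate 4 and 13 without replicate 5, and 25 to 37 without one of the others. MDN1 was not called without trend and robust moderation, nor without DS/AA replicate 3 or DS/AA-H/G replicate 4 or 5. Of 6 genes for dedicated chaperones of large-subunit proteins, 3 fell. The other 3 were not called. Those that fell were RRB1, whose protein guards Rpl3, at -0.24 ± 0.04 (SE, limma adjusted p = 0.00108), SYO1, which carries Rpl5 and Rpl11, at -0.21, and ACL4, which guards Rpl4, at -0.18. ACL4 was not called with equal totals (limma adjusted p = 0.0975) or equal totals outside the ribosomal protein genes (0.0531), nor without DS/AA replicate 2 or DS/AA-H/G replicate 4 or 5 (0.0722, 0.0868 and 0.0602). Without trend and robust moderation the calls of ACL4 and SYO1 were lost (limma adjusted p = 0.0884 and 0.0527). SQT1, the chaperone gene of Rpl10, was at 0.02 ± 0.04 and was not called.

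Of 11 regulators of ribosomal protein genes, HMO1 fell and CRF1 and SFP1 rose, or 27.3% of the list against 41.8% of all tested rows called, with a list median of -0.02. HMO1, which encodes a DNA-binding protein found at many of these promoters, went from 6932 ± 75.2 to 5332 ± 52.5 scaled counts (SD, n = 3), a change of -0.38 ± 0.03 (SE, limma adjusted p = 2.45e-06). CRF1, which encodes a corepressor that competes with Ifh1 for Fhl1, went from 158 ± 8.50 to 335 ± 18.3, a change of 1.08 ± 0.10 (SE, limma adjusted p = 3.81e-06). SFP1, an activator gene, was at 0.18 ± 0.05 (SE, limma adjusted p = 0.0119), a call lost without DS/AA-H/G replicate 5 or 6 (0.0601 and 0.0505) and without trend and robust moderation (0.0635). RAP1, FHL1 and IFH1 were at -0.05, -0.06 and -0.09 with SEs of 0.04 and were not called. SQT1, RAP1, FHL1 and IFH1 were named for their roles after their values were seen.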

How the data were processed

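RNA from 6 libraries, 3 per strain, was compared. The labels' protocols name an RNeasy kit for the RNA and a directional Illumina kit. The submitters' processing notes list bcl2fastq 2, cutadapt 1.18, Salmon 1.2.1, R 3.5.1 and build R64, without a strand setting or scaling method. The authors' deposited value for each library is a signal: estimated counts over a single library factor. The values themselves show this, since 93.3% to 96.4% of those under 10 steps, but 36.5% to 44.0% of all, were whole multiples of 1 step within 0.01, so no count model was used. Their deposited table also holds a log2 ratio of means, a p-value, a q-value, a score that ranks the rows and a mark for q under 0.05, from a test that it does not name.

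Rows reaching a value of 1 in 3 or more libraries were fitted with limma 3.58.1 (R 4.3.3) on log2(value + 1), using trend and robust moderation, as DS/AA minus DS/AA-H/G. That scale understates the change of low genes. The A to B ratios were fitted in the same way over the 60 pairs whose names differ only in a final A or B. The gene test was checked on simulated data, where 96 of 100 genes changed by 0.3 in either direction were called. The simulation gave all genes the same dispersion, changed no gene of low mean value and left 6060 of 6260 genes unchanged. That share therefore need not hold in the real data. Coding lengths, introns and promoters came from RefSeq R64, in which 5811 row IDs were found, 5802 of them with identical coordinates. Members were searched against all coding sequences with BLAST+ 2.17.0, and a gene sharing 100 nt or more at 95% identity, or an identical stretch of 100 nt, with its copy is called uncertain.

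Named genes were members called higher, uncalled members, the 8 largest falls, the most abundant member per role, the extremes of level and of ratio change, and up to 3 genes per further list. Other members were added to complete a pair or a role after their values were seen. The members, lists and tests were chosen with earlier results of these data known.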

Additional observations from a re-analysis of the deposited data

How the results depend on the processing

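No paired analysis was possible because the strains share no replicate number. Under 16 alternatives (pseudocount, filter, scaling, moderation, or 1 library left out), 67 of the 80 rows were called lower and RPL9B and RPL15B higher each time, and no member changed direction. The median change of the members was -0.23 with equal totals, -0.26 with equal totals without CIT1, -0.24 under quantile normalization and -0.25 with equal totals over rows outside the ribosomal protein genes. In the same order, the median over all tested rows was 0.06, 0.03, -0.06 and 0.04, against 0.01 with the values as deposited. With A and B summed, 44 of 46 rows were lower and 0 higher by limma, since both risen copies merge with a larger one. The ratio count of 13 pairs went to 6 without trend and robust moderation. With 1 library left out, 2009 to 2576 of all rows were called, 72 to 76 members lower and 2 higher, with medians of -0.29 to -0.27, and 7 to 12 pairs had a called ratio, the fewest without DS/AA-H/G replicate 6 (7) and then without DS/AA replicate 1 or DS/AA-H/G replicate 5 (8 each). The uncalled ratios of RPL34, RPL8 and RPL19 crossed 0, at -0.01 to 0.02, -0.02 to 0.00 and -0.02 to 0.02. The causes were not tested. The lowest value of a large-subunit gene in any library was 1147 scaled counts, so none was near the floor of a few reads.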
